A study of Mus musculus with 6 samples.

Results

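Binding of the transcription factor RUNX1 was examined around 5 mouse genes that carry signals between the granulosa cells of the ovarian follicle and the oocyte: Nppc, Npr2, Kitl, Gja1 and Gja4. The measurement was chromatin immunoprecipitation followed by sequencing (ChIP-seq), and the data are 1 list of called peaks for each of 4 libraries. A peak was assigned to a gene when its summit, the base with the highest signal, lay inside the annotated gene or within 50 kb of either of its ends. By this rule the windows of the 5 genes, of 21887 protein-coding genes in the annotation, held 28 of the 51515 peaks in the lists. The granulosa cells came from CBA x C57BL/6 F1 mice, 21 days old, given 5 IU of equine chorionic gonadotropin (eCG) to drive follicle growth. The 6 h group, labelled peri-ovulatory, was collected 6 h after 5 IU of human chorionic gonadotropin (hCG), which triggers ovulation in place of luteinising hormone and was injected 46 h after eCG. The 0 h group, labelled pre-ovulatory, is known only from the titles and the time label, since the treatment text is identical for every sample. Each group had 2 RUNX1 ChIP libraries, whose lists were called against 1 pooled input per time point. How many animals a library pooled is not given in the sources used here, so the p-values below measure only the spread between these libraries, which may be technical.

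Of the 5 genes, Nppc, Npr2, Gja1 and Gja4 act in a chain. Granulosa cells that line the follicle wall secrete C-type natriuretic peptide, the product of Nppc, and the receptor NPR2 on the cells around the oocyte answers it by making cyclic GMP. Cyclic GMP passes through gap junctions, built from connexin 43 (Gja1) among granulosa cells and connexin 37 (Gja4) at the oocyte surface, and keeps the oocyte arrested in meiosis until the ovulatory surge. KIT ligand, the product of Kitl, is a separate granulosa signal to the receptor KIT on the oocyte. The lists measure binding of RUNX1 to DNA and hold no expression values, so the granulosa label was not checked against marker genes.

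All 28 peaks fell into 18 separate sites, and 26 of the peaks (92.9%) were from the 6 h libraries, which hold 92.1% of all peaks in the lists. Each of the 5 genes had a peak within 1 kb of its start site in 6 h replicate 2, as did 46.8% of 17492 protein-coding genes. In 6 h replicate 1 this held for 3 of the 5, against 39.5% of protein-coding genes. None had a peak there in 0 h replicates 1 and 2, where 1.60% and 8.68% of all genes did. The start-site sequences below are given for the 4 genes whose own 6 h site reached into the 300 bases around the start (250 before it and 50 after it), and for Dis3l2, whose start site held the highest fold of the 5 windows in 6 h replicate 2, though not in 6 h replicate 1. Letters are from RefSeq, GRCm38.p6, printed 5′ to 3′ on the strand of the gene, and capitals mark the bases that lie inside the called site. The intervals are chr1:86670524-86670823 (minus strand) for Nppc, chr4:43631685-43631984 (plus) for Npr2, chr10:100015571-100015870 (plus) for Kitl, chr4:127313990-127314289 (minus) for Gja4 and chr1:86703554-86703853 (plus) for Dis3l2.
Nppc: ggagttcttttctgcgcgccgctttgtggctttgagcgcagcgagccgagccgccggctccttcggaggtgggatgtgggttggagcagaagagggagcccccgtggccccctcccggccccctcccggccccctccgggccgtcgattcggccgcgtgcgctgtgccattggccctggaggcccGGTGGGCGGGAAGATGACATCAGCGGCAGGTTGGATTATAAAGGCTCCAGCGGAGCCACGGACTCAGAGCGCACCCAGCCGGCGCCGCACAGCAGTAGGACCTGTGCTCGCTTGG
Npr2: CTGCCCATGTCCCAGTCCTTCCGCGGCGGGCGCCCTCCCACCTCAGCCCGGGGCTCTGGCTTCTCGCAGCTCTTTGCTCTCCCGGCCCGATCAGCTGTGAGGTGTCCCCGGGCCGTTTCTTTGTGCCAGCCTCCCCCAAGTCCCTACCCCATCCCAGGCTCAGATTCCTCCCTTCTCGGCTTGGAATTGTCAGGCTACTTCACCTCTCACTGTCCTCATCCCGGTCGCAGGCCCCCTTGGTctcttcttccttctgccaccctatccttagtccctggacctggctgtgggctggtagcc
Kitl: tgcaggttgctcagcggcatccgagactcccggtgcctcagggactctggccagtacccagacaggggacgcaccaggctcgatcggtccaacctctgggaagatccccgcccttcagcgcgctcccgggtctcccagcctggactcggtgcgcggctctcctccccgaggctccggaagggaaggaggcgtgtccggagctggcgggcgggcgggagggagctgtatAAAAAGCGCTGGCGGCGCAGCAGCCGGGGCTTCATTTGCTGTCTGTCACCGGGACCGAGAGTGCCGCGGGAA
Gja4: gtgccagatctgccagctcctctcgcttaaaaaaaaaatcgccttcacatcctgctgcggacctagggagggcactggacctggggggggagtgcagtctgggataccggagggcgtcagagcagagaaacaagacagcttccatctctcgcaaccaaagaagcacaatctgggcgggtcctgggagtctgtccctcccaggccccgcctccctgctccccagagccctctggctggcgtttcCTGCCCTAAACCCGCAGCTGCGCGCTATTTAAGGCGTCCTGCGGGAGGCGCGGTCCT
Dis3l2: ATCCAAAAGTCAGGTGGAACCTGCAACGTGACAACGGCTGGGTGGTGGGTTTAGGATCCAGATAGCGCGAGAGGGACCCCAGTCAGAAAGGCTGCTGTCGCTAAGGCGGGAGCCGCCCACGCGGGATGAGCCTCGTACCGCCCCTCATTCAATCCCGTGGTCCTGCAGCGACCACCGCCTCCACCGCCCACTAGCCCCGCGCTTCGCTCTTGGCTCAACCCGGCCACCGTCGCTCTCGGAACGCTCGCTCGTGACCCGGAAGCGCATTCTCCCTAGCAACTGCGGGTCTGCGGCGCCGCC

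The called sites covered 115 of the 300 bases for Nppc, 241 for Npr2, 72 for Kitl and 57 for Gja4, while all 300 bases for Dis3l2 lay inside its site. The summits of the 4 genes' own sites lay outside the printed bases, so these stretches show the flank of each site and not its centre. The RUNX core TGTGGT, searched on both strands, was in none of the 5 genes' 300-base stretches, Gja1 included, and neither was the variant TGCGGT. The stretch of Dis3l2 held neither core. Of 21263 such stretches of protein-coding genes, 15.0% held TGTGGT, 7.44% held TGCGGT and 21.6% held at least 1 of them. The stretches held 69.3% G and C for Nppc, 68.7% for Kitl, 64.0% for Npr2, 62.0% for Gja4 and 47.7% for Gja1. Over all such stretches the median was 56.3%, with quartiles of 48.3% and 64.7%. Nppc and Kitl thus lay above the upper quartile and Gja1 below the lower, with Npr2 and Gja4 between them. The motif counts describe these windows alone.

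Nppc, the gene for the peptide ligand, had 0 and 1 peaks in 0 h replicates 1 and 2 and 3 and 5 peaks in 6 h replicates 1 and 2. These made 5 sites, of which 3 were replicated, meaning that overlapping peaks (by at least 1 bp) were called in both libraries of the time point. The replicated site at its own start, chr1:86670300-86670638, lay inside the gene with its mean summit 98 bp past the start site. Its fold enrichment over local background, the authors' value, was 7.0 in 6 h replicate 1 and 8.63 in 6 h replicate 2. These folds ranked at percentiles 30.1 and 32.4 of their lists, and neither 0 h library had a peak there. Percentiles are used because the fold has a scale of its own in every library.

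The other sites in the Nppc window all lay inside the neighbouring gene Dis3l2, which encodes an RNA-degrading exonuclease. The site with the highest fold in 6 h replicate 2, chr1:86703436-86704229, was centred 11 bp past the start site of Dis3l2 and lay upstream of Nppc, at −33242 bp from its start site. It was called in 3 libraries, with a fold of 5.19 in 0 h replicate 2, 8.13 in 6 h replicate 1 and 19.3 in 6 h replicate 2. The corresponding percentiles were 9.17, 44.7 and 83.4, each within a list of its own length, so they cannot show whether the rank changed. The summits of the 3 libraries lay within 38 bp of each other. The third replicated site, chr1:86712010-86712902, lay at −41621 bp and had no 0 h peak. Its 6 h folds were 10.4 and 17.6, which ranked at percentiles 65.4 and 79.8. The remaining pair of sites, at −47566 and −48991 bp, were called in 6 h replicate 2 alone, at percentiles 28.1 and 2.81.

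Npr2, the receptor gene, had no peak in either 0 h library and 3 and 6 peaks in the 6 h libraries, in 7 sites. Its own start was bound in both 6 h libraries, at chr4:43631525-43631925. The mean summit lay at −286 bp from the start site of the promoter table, which is inside the annotated gene, so the site is within the Npr2 gene as well. The fold was 10.2 and 12.1 in 6 h replicates 1 and 2, at percentiles 64.1 and 58.6, the highest rank of any site at a start of the 5 genes in either 6 h list. A site 377 bp past the start was called in 6 h replicate 1 alone, with a fold of 6.54. The second replicated site in the window, chr4:43656150-43656846, lay 51 bp past the start site of Hint2, the gene for a mitochondrial nucleotide-binding protein. The folds there were 6.60 and 9.22 (percentiles 24.4 and 37.5). The other 4 sites were called in 6 h replicate 2 alone. They were 1 at the start of Tmem8b (percentile 39.5) and 3 near Olfr70, an olfactory receptor gene, at percentiles 5.43 to 20.9.

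**Figure D1:**
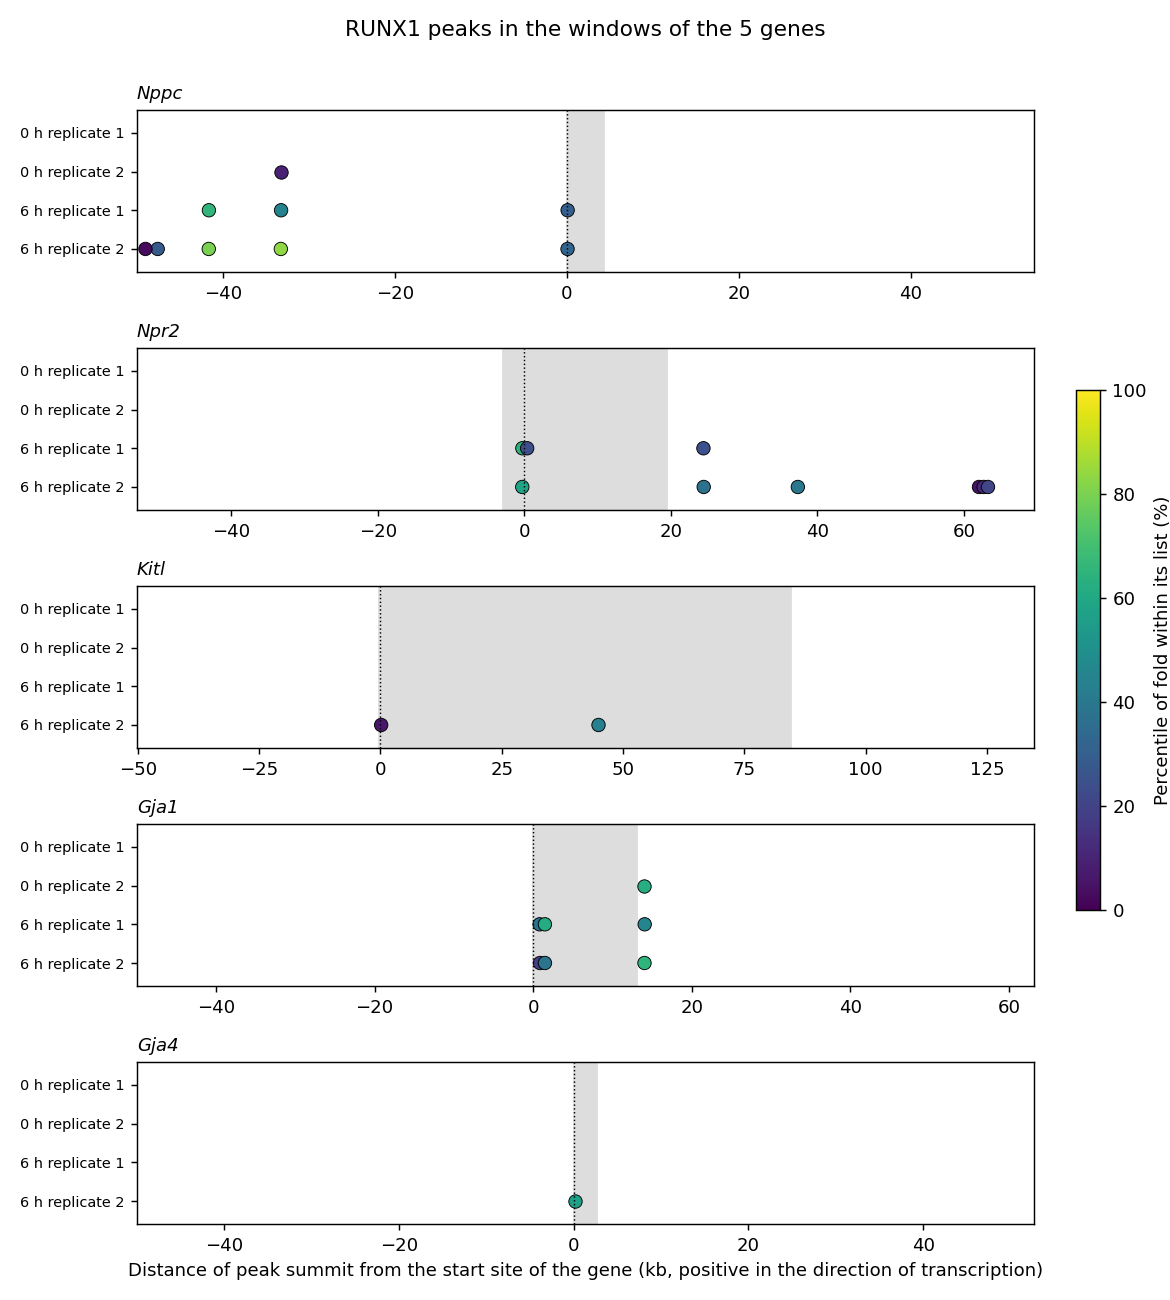
Position of every peak summit in the 5 windows (horizontal axis, kb from the start site in the direction of transcription) in each library (rows), coloured by the percentile of fold within its list, with the annotated gene in grey and the start site as a dotted line. The 0 h rows hold 2 summits, 1 for Nppc and 1 for Gja1, both at positions that also have a summit in each 6 h library, and Kitl and Gja4 have summits in 6 h replicate 2 alone.

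Kitl, the gene for KIT ligand, had 0 peaks in both 0 h libraries, 0 in 6 h replicate 1 and 2 in 6 h replicate 2. Neither of its sites was therefore replicated, although its window, of 184802 bp, was the longest of the 5. The site at its start, chr10:100015799-100016226, had its summit 157 bp past the start site and a fold of 5.80 (percentile 6.09). The site inside the gene, 44950 bp past the start at chr10:100060641-100060862, had a fold of 9.82 (percentile 43.1).

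Gja1, the gene for connexin 43, had 1 peak in 0 h replicate 2, none in 0 h replicate 1 and 3 in each 6 h library, and all 3 of its 6 h sites were replicated. A pair of them lay inside the gene, with mean summits 838 and 1486 bp past the start site. The first, chr10:56377966-56378231, scored a fold of 7.59 in 6 h replicate 1 and 7.34 in 6 h replicate 2, ranking at percentiles 38.3 and 18.8. The second, chr10:56378530-56379194, scored 9.84 and 9.26, ranking at 61.4 and 38.1. The third site, chr10:56391150-56391831, lay outside the gene, 935 bp beyond its far end. It was called in 3 libraries, with a fold of 7.94 in 0 h replicate 2, 8.21 in 6 h replicate 1 and 13.2 in 6 h replicate 2, at percentiles 62.0, 45.6 and 64.9. Its summits lay within 27 bp of each other.

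Gja4, the gene for connexin 37, had a single site, at its start. It was called in 6 h replicate 2 alone, at chr4:127313771-127314046, with its summit 106 bp past the start site and a fold of 11.7 (percentile 56.8). Of the 18 sites in all windows, 9 had the studied gene as the nearest gene and 9 another gene (4 Dis3l2, 3 Olfr70, 1 Hint2 and 1 Tmem8b). Of the 8 replicated 6 h sites, 5 were nearest the studied gene.

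**Figure D2:**
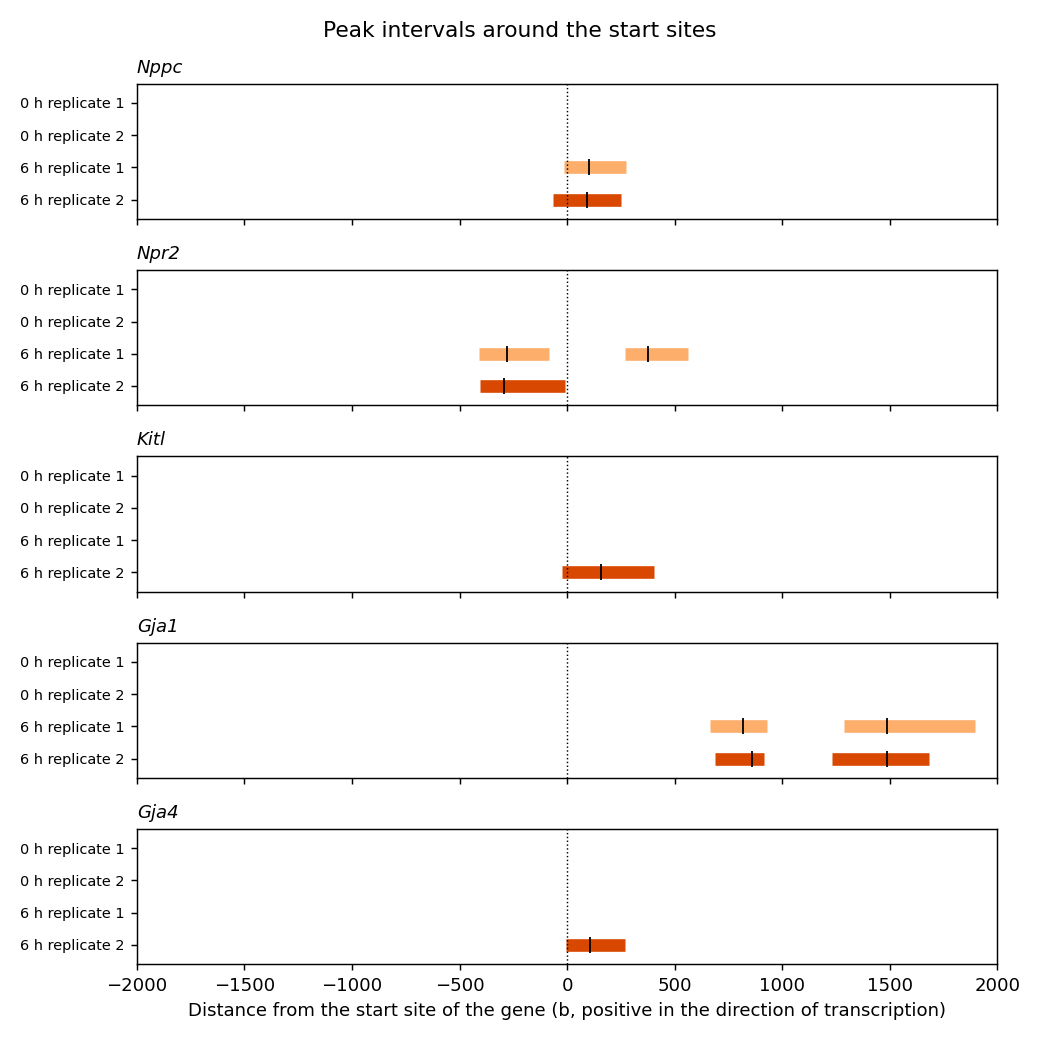
Called intervals (bars) and summits (ticks) within 2000 bases of the start site of each gene (horizontal axis, bases, positive in the direction of transcription), by library. The start site of Nppc, Kitl and Gja4 lies inside a 6 h interval, the Npr2 interval ends just before it, the nearest Gja1 interval begins 666 bases past it, and the 0 h rows are empty.

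Binding next to the start sites was set against that of all genes with a start in the table. Within 1 kb of the start, 3 of the 5 genes had a summit in 6 h replicate 1 and 5 of 5 in 6 h replicate 2, against 39.5% and 46.8% of 17492 protein-coding genes. Within 300 bases the counts were 2 and 4 of 5, against 32.2% and 38.7%. In 0 h replicates 1 and 2 no member had a summit within 1 kb, against 1.60% and 8.68% of all genes, and none within 300 bases, against 1.28% and 6.77%. With 5 genes, and with peaks of Kitl and Gja4 in a single library, these counts describe the genes and were not tested.

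The time points were then compared over libraries. At least 1 peak in the window was found for 0 of the 5 genes in 0 h replicate 1 and 2 of 5 in 0 h replicate 2, against 9.43% and 28.2% of protein-coding genes. In 6 h replicates 1 and 2 it was found for 3 of 5 and 5 of 5, against 69.3% and 76.1%. The 5 windows together held 0 and 2 peaks in the 0 h lists, a mean of 1 ± 1.41 (SD, n = 2), and 9 and 17 peaks in the 6 h lists, a mean of 13 ± 5.66 (SD, n = 2). The groups did not overlap. On the scale of log2(peaks + 1) the difference was 2.95 (exact permutation test, two-sided, p = 0.333), which is the smallest p that 2 libraries against 2 can give. More peaks in each 6 h library than in each 0 h library were counted for 3 of the 5 genes (Nppc, Npr2 and Gja1), against 64.7% of all protein-coding genes, so a higher number at 6 h was the common pattern in these lists. Kitl and Gja4 were the exceptions, with no peak in 6 h replicate 1.

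As a share of its list, the members' peaks made up 0% and 0.0638% in 0 h replicates 1 and 2, against 0.0480% and 0.0593% in the 6 h libraries. The means differed by 0.0217 percentage points, less than the SD of 0.0451 of the 0 h libraries (exact permutation test, two-sided, p = 1). The sign of this difference changed to −0.0102 without 0 h replicate 1, the shortest list. It was 0.0534 with windows of 100 kb, 0.0512 with a −log10 q of at least 20 and 0.0255 in the gene bodies alone, each with an exact permutation p = 0.333. The q-value limit and the gene bodies alone left no 0 h peak of the members, so both 0 h shares were at their lowest possible value. In these settings the p was fixed once both 6 h lists held a member peak. The lists hold 948 and 3135 peaks at 0 h and 18761 and 28671 at 6 h, and the member counts moved with these lengths. Per 100 kb of window the members had 1.43 and 2.71 peaks at 6 h, against 1.59 and 2.19 over the windows of all protein-coding genes.

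**Figure D3:**
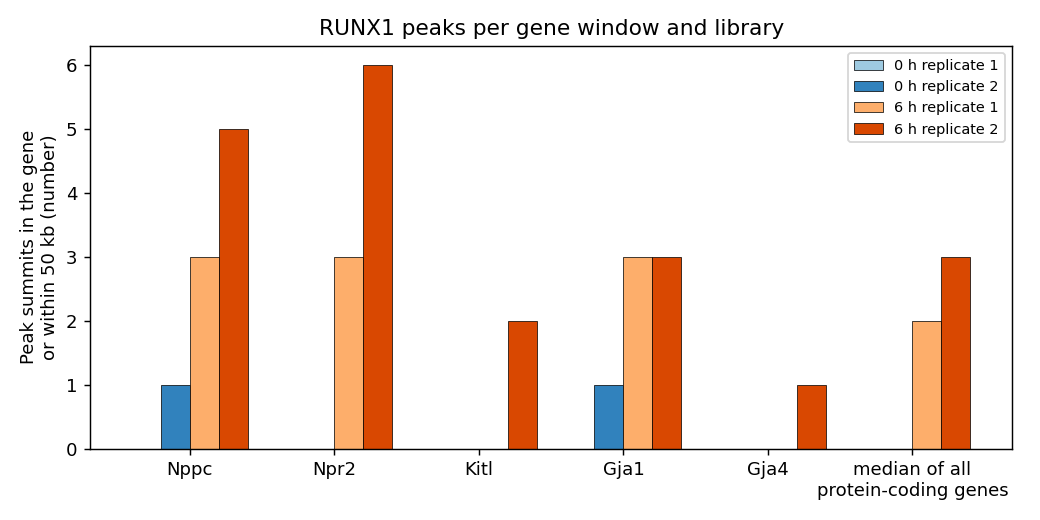
Number of peak summits in the gene or within 50 kb (vertical axis) for each of the 5 genes in each library (bars), with the median over all protein-coding genes at the right. Bars at 0 h reach at most 1, and at 6 h Nppc, Npr2 and Gja1 have 3 to 6 peaks, against medians of 2 and 3 for all genes.

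A replicated region was present at 0 h for 0 of the 5 genes, against 8.76% of protein-coding genes, and at 6 h for 3 of 5, against 68.9%. The 8 replicated regions at 6 h belonged to Nppc (3), Npr2 (2) and Gja1 (3). A 0 h peak, always of replicate 2, overlapped 2 of these 8, against 16.5% of all 17190 replicated 6 h regions. By gene, 2 of 5 had such a region, against 27.7% of all genes, and 3 of 5 had a replicated 6 h region free of 0 h peaks, against 65.0%. In a group of 5 genes these counts are close to the shares of all genes. Leaving out 6 h replicate 1 would count Kitl and Gja4 as well and give 17 regions, where 76.1% of protein-coding genes have a peak in 6 h replicate 2.

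By their median, the peaks of the 5 genes ranked below the middle of the list in each library that had any. The median percentile of fold was 35.6 for the 2 peaks of 0 h replicate 2, 44.7 for the 9 peaks of 6 h replicate 1 and 37.5 for the 17 peaks of 6 h replicate 2. The 0 h value rests on 1 library, and ranks in lists of such different lengths cannot show whether ranks changed between the times. Among the 948 peaks with the lowest p-value of each library, 0 were in the members' windows in any of the 4 libraries, while 9.43%, 10.3%, 9.99% and 8.40% of protein-coding genes had such a peak in 0 h replicates 1 and 2 and 6 h replicates 1 and 2. A region replicated at 6 h among these peaks was likewise found for 0 of the 5 genes, against 6.85%. The best percentiles of the 5 genes, 65.4 and 83.4, were those of the Nppc window and belonged to sites inside Dis3l2, while the site at the Nppc start ranked at 30.1 and 32.4. A higher best percentile than that of the Nppc window was found for 43.9% of protein-coding genes in 6 h replicate 1 and 33.6% in 6 h replicate 2.

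The number of reads behind each peak was recovered from its fold and p-value. At the summits in the windows it was 25 and 28 reads in 0 h replicate 2, 31 to 60 in 6 h replicate 1 and 22 to 90 in 6 h replicate 2. The site at the start of Dis3l2 had 25, 45 and 90 reads in these 3 libraries, and the site beyond the far end of Gja1 had 28, 60 and 86. At the genome-wide background a peak needs at least 16 to 18 reads, depending on the library, to reach the p-value at which the lists end. Peaks are called against the local background, and a higher one raises this limit. The local background in 0 h replicate 2 was 4.01 reads at the Dis3l2 start and 2.65, the genome-wide level, at the Gja1 site. The Dis3l2 and Gja1 sites both had more reads in each 6 h library than in 0 h replicate 2. The part of sequencing depth and of immunoprecipitation efficiency in the missing 0 h peaks was not tested.

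**Figure D4:**
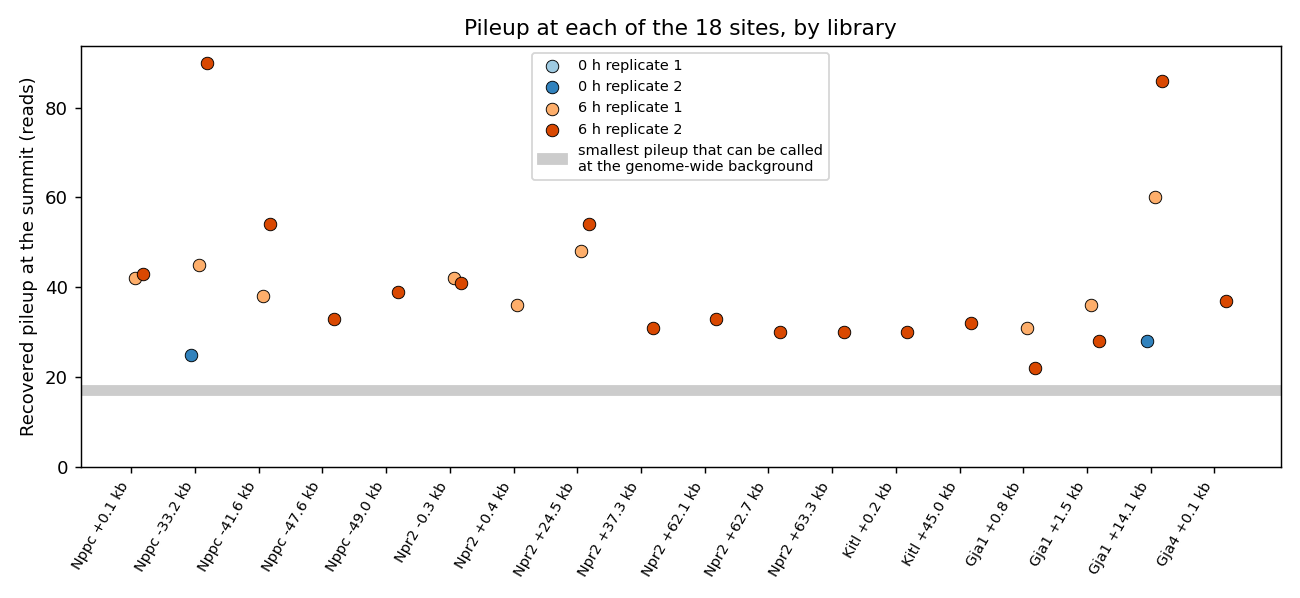
Recovered pileup at the summit (vertical axis, reads) for each of the 18 sites, named by gene and distance of the mean summit from the start site, with 1 point per library that called a peak; the grey band spans the smallest pileup (16 to 18 reads) that can be called at the genome-wide background. A higher local background raises this limit. Only the Dis3l2 start in the Nppc window and the site beyond the end of Gja1 have a 0 h point, and both have their highest pileup, 90 and 86 reads, in 6 h replicate 2.

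The edge of the windows mattered for some genes. The first site outside the Npr2 window lay 50348 bp from the gene, at an end of Rgp1 and inside Gba2, at chr4:43578164-43579192 in 6 h replicate 2. It had a fold of 7.15 in 0 h replicate 2 and 15.5 and 27.7 at 6 h (percentiles 46.6, 85.9 and 92.6), above every site inside the Npr2 window, of which the outermost, near Olfr70, had a percentile of at most 20.9. For Kitl the first outside site was 60847 bp beyond the gene, at chr10:100161033-100161672 in 6 h replicate 2, outside genes and 17127 bp from the long noncoding gene Gm35533. It was replicated at 6 h, with a fold of 16.9 and 25.6 (percentiles 88.6 and 91.1), and had no 0 h peak. With windows of 100 kb all 5 genes had a replicated 6 h region, 18 regions in all, where 76.7% of protein-coding genes had one.

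Other genes of these pathways were read from 5 lists with 54 members in all. A replicated 0 h region was found for 3 of the 54 and a replicated 6 h region for 45 of the 54, shares of 5.56% and 83.3% against 8.76% and 68.9% of all protein-coding genes, and the median number of replicated 6 h regions was 2 in the lists and 2 over all genes. The natriuretic peptide and cyclic GMP list had a 6 h region for 11 of 12 genes and the list of contacts and transzonal projections for 7 of 7. The list of KIT and oocyte-secreted factors had one for 7 of 8, that of oocyte cyclic AMP and meiotic resumption for 8 of 10, and that of other connexins for 12 of 17. Several connexin genes are neighbours and share windows, so their counts are not separate.

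Pde5a and Prkaca were among the 3 list genes with a replicated 0 h region. Pde5a encodes a phosphodiesterase that breaks down cyclic GMP. Its region at chr3:122721382-122722192, 7472 bp upstream of the start, had folds of 28.7 and 44.5 in the 6 h libraries and overlapped a 0 h region with 9.55 and 10.7. Prkaca, the gene for a catalytic subunit of the cyclic AMP-dependent kinase, had a 0 h region with a fold of 6.90 and 10.1. The list genes with the highest 6 h percentiles, averaged over both 6 h libraries, were Impdh2 (98.8), Tgfbr1 (98.1) and Pde5a (98). Of these, Tgfbr1, a receptor for TGF-beta family signals, had the region at its own start, 98 bp before it, with a fold of 31.3 and 41.7. The Impdh2 region lay inside the neighbouring gene Qrich1, 753 bp past its start. No site of the 5 studied genes reached these ranks in either 6 h library, the highest being 83.4 in 6 h replicate 2. This sets the best of 54 list genes against only 5 genes.

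For each gene the most similar others were sought by the distance between their highest percentiles in the 4 libraries (0 where there was no peak). For Gja1 they were Pdp1 and Papola, at distances of 6.95 and 7.74 percentile points, and for Nppc Fkbp8 was among them, at 2.96. For Npr2 they were Abcb9 and Vps37b, at 0.639 each. For Kitl they were Nrxn2 (0.0750) and Ankrd34c (0.201), and for Gja4 they were Mat1a and Nbas, both at 0 because their best peaks tie with that of Gja4 in fold. Genes at equal distance can share a peak, and Kitl and Gja4 are matched on a single nonzero value.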

How the data were processed

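Reads were aligned with Bowtie2 2.2.5 to mm10 and peaks were called with MACS2, per the submitters' processing notes; settings are not given in the sources used here. Every row of a deposited list holds 1 peak with its coordinates, its summit offset, a fold over local background, and a p-value and a q-value as −log10. The score in the deposited lists restates −log10 p and was left out. Each list was called separately, so folds were ranked within a list. Genes are whole RefSeq intervals on GRCm38.p6, the assembly of mm10, so exons and introns were not separated. Start sites and strands came from the promoter table, and positions count from 1.

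The pileup was solved as the whole number that fits fold and Poisson p with a misfit of at most 0.005 in −log10 p, which succeeded for 100% of peaks. The commonest background, 2.13 to 2.77 reads, is the genome-wide level of a library. Regions were merged over replicates by at least 1 bp. Libraries were compared with exact permutation tests (Python 3.11.15, scipy 1.17.1). The recovery of reads, the counting in windows and the merging over replicates were tested on simulated data. The simulated read numbers did not go as low as the lowest in the lists. The genes named are the members, list genes with a replicated 0 h region, the 4 list genes with the highest 6 h percentile, the 2 most similar genes per member, and neighbours at a site. Sites outside the windows, Dis3l2 and the core TGCGGT were chosen after their values were seen. Some genes that this rule names are not reported here. The members and lists were chosen with earlier results of these data known.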

Additional observations from a re-analysis of the deposited data

How the results depend on the processing

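The alternatives changed window, threshold, list length, overlap rule, rank and libraries. Replicated 6 h regions numbered 8, and became 18 with windows of 100 kb, 4 with the gene body only and 0 with equal numbers of peaks per library. Those that overlap a 0 h peak numbered 2, and became 1 with 10 kb. They became 0 with the gene body only, with a −log10 q of at least 20, with equal numbers of peaks and with an overlap of 50% of both intervals. Genes with a replicated 6 h region numbered 3, and became 5 with 100 kb (against 76.7% of protein-coding genes) and 0 with equal numbers (against 6.85%). Equal numbers left 0 peaks in every library, so the differences in log2 peaks and in share became 0 by construction. The difference in median percentile, 5.56 (exact permutation test, p = 0.667, n = 1 and 2 libraries), was −23.8 with 10 kb. The 0 h value is then the single Gja1 peak at 62.0, since the peak at the Dis3l2 start drops out. As ranks in lists of unequal length, neither value can show whether ranks changed. There was no value with the gene body only, a −log10 q of at least 20, equal numbers, or without 0 h replicate 2, since no 0 h peak was left.

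Leaving out each library in turn gave a difference of 2.16 to 3.75 in log2 peaks, −0.0102 to 0.0536 percentage points in share and 1.96 to 9.16 in median percentile. The counts ran from 0 to 2 for replicated 0 h regions and for genes with one, 8 to 17 for replicated 6 h regions, 0 to 2 for those that overlap a 0 h peak, and 3 to 5 for genes with a 6 h region. The single library left at a time point then stood for both.

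With a replicate block the difference in log2 peaks was 2.95 (exact sign-flip permutation test, p = 0.5, the smallest 2 pairs can give), in share 0.0217 and in median percentile 1.96, from 1 pair. The labels link replicates across time points only by number. The correlation of replicate differences between time points over 21887 genes was −0.0299. Only 9.43% and 28.2% of protein-coding genes had a peak in 0 h replicates 1 and 2. With so many empty windows, this correlation cannot decide whether the replicates were paired.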

Other observations

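Beyond the 50 kb windows, some replicated 6 h sites lay at or in neighbouring genes. On the side of Npr2 where Rgp1 lies, a 6 h site was called at an end of Creb3, a transcription factor gene, with a fold of 13.2 in 6 h replicate 2 (percentile 64.6). In 6 h replicate 1 its summit was 29 bp from an end of Tln1, with a fold of 8.30 (percentile 46.9). Beyond the Nppc window, on the side away from Dis3l2, a site inside Cops7b, 83297 bp from Nppc in 6 h replicate 1, had a fold of 10.1, and its counterpart in 6 h replicate 2 had 24.1 (percentiles 63.7 and 89.8). Neither site had a 0 h peak. Both were chosen after their values were seen.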
